A study of Saccharomyces cerevisiae with 8 samples.

Results

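Budding yeast makes NAD from tryptophan through the kynurenine pathway, or from nicotinate that it takes up from the medium. The 8 genes described here encode the enzymes of these routes up to nicotinate mononucleotide. BNA2, BNA7, BNA4, BNA5, BNA1 and BNA6 act in that order on tryptophan and its products, TNA1 imports nicotinate, and NPT1 turns nicotinate into the same mononucleotide that BNA6 makes. They were chosen by name, for their place in the pathway, from the 5656 genes that the array represents. Earlier results of these data were known at that choice. Each gene was measured by 1 probe set of its own.

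The pathway bears on both treatments of the study. The enzymes encoded by BNA2, BNA4 and BNA1 use molecular oxygen, and yeast grown without oxygen therefore depends on nicotinate from the medium. The BNA2 enzyme, which opens the indole ring of tryptophan, belongs to a family of heme proteins, the BNA4 enzyme is a flavin monooxygenase, and the BNA1 enzyme is a dioxygenase with non-heme iron. Several of the BNA genes and TNA1 are known targets of a repressor made of the NAD-dependent deacetylase Hst1 with Sum1 and Rfm1.

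RNA from 8 yeast samples was measured on Affymetrix YG_S98 arrays, with 2 samples in each of 4 groups. The hem1 deletion strain cannot make 5-aminolevulinic acid (ALA), the first precursor of heme, and makes heme only when ALA is supplied. This strain grew for 6 h in YPD, a rich medium, to which 250 µM ALA was added. After washing, duplicate cultures of 15 ml YPD were kept for 16 h, with ALA in one group and without it in the other. The wild type strain, given in the labels as BY45742, was grown for 6 h in YPD and then for 12 h in 15 ml of it, either in air (normoxia) or in an anaerobic chamber (hypoxia). The wild type groups received no added ALA, and rich medium, which all groups share, holds tryptophan and nicotinate. The wild type samples of a group are not said to come from separate cultures. A p-value here therefore reflects no more than variation between the 2 samples within groups. That variation is pooled over the 4 groups and drawn toward that of other probe sets, and part or all of it may be technical.

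The signal of a probe set is its brightness on a linear scale, and the mean of each array after trimming both ends was 500.42 to 500.58. A median log2 signal over all probe sets, by contrast, was 0.40 higher without ALA than with it and 0.49 higher in hypoxia than in normoxia. Differences below are therefore also given relative to the array medians where that changes a call. The 18S ribosomal control was 3507 on 1 array without ALA and 10736 on 1 hypoxia array, and 115 to 355 on the other arrays. The ratio of the 3′ to the 5′ ACT1 probe set, a sign of RNA quality, was 1.57 to 1.86 with ALA, 1.77 to 1.81 without it, 1.40 to 1.49 in normoxia and 2.11 to 2.18 in hypoxia. Its part in the results was not tested. The HEM1 probe set read 460 and 608 with ALA, 849 and 696 without it, 707 and 683 in normoxia and 1413 and 1613 in hypoxia. Whether its probes fall inside the deleted stretch is not known here, so it does not check the strain. All cultures carried the mRNAs of MATalpha cells, the mating type that makes alpha-factor, and a signal from a culture cannot tell fewer cells of a kind from less RNA per cell.

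Heme depletion raised 5 of the 8 genes, BNA2, BNA4, BNA5, BNA1 and NPT1, and lowered none by the test. In hypoxia only BNA2 of the 8 rose, BNA7 and BNA1 fell, and the other 5 did not pass. A gene is counted as called when its adjusted p in limma, over the 7081 probe sets tested, is below 0.05. Of those probe sets, 49.9% were called in heme depletion, 30.2% as rises and 19.7% as falls, against 62.5% of the 8 genes. In hypoxia 55.8% of probe sets were called, 33.3% as rises and 22.5% as falls, against 37.5% of the 8 genes. With calls this frequent over the whole array, the counts over the 8 genes are given as descriptions. Counted by arrays alone, both treated arrays lay above both controls for 6 of the 8 genes in heme depletion and below them for 1, where 44.4% and 32.7% of all probe sets did so. In hypoxia 2 lay above and 2 below, where 46.2% and 33% of all probe sets did so. The median log2 difference of the 8 genes was 0.75 in heme depletion, where the median of all tested was 0.14, and 0.01 in hypoxia, where that median was 0.21.

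**Figure D1:**
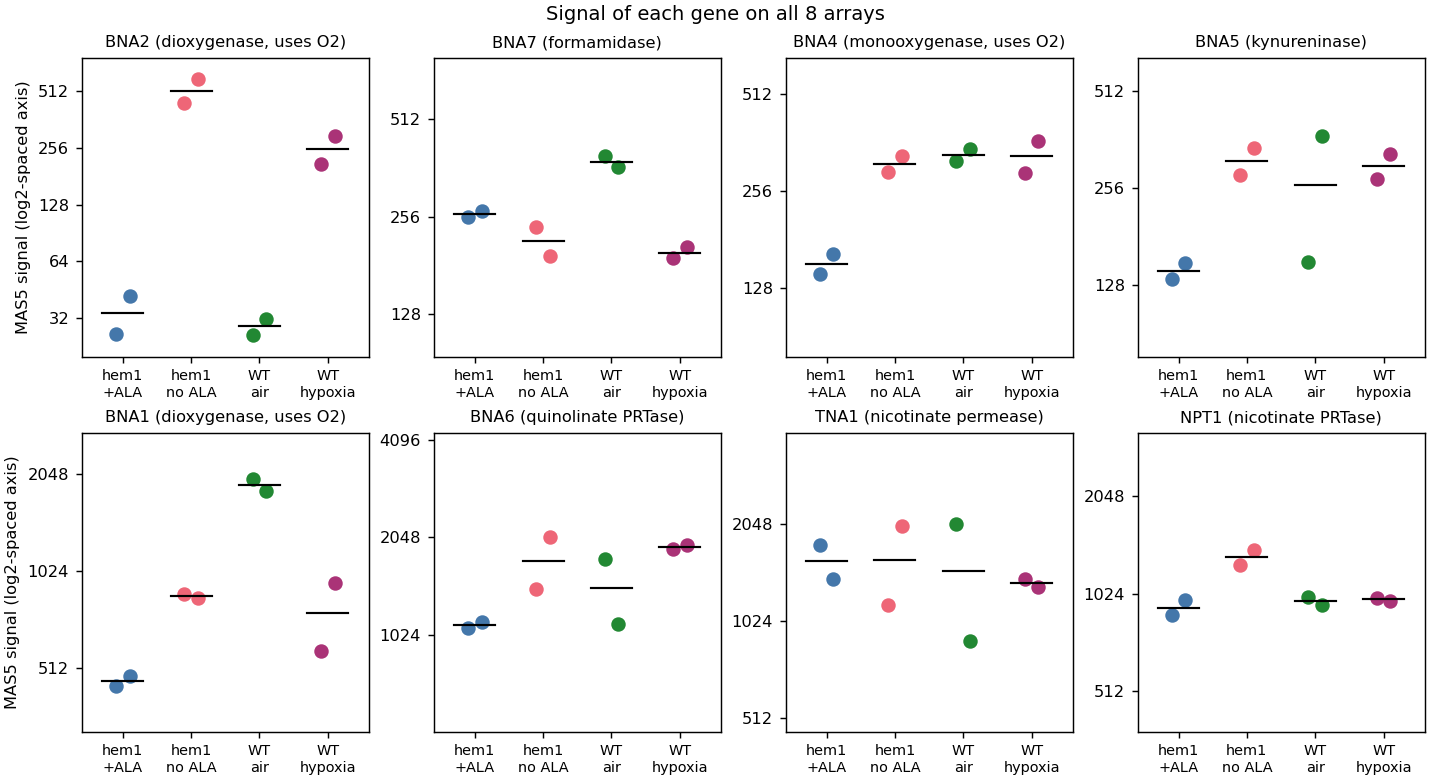
Signal of each of the 8 genes on each of the 8 arrays, on log axes, with points for single arrays and bars for group means. BNA2 stands at 25.8 to 41.8 in both control groups and at 211 to 593 in both treated groups, while TNA1 overlaps between all groups.

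BNA2, the entry step from tryptophan, changed most among the 8 genes in both treatments. The hem1 arrays read 26.4 and 41.8 when ALA was supplied, against 443 and 593 when it was not. The wild type arrays read 25.8 and 31.7 in normoxia, against 211 and 295 in hypoxia. Both treated groups lay far above both control groups, and in each control group only 1 of the 2 arrays exceeded the 30th percentile of its array, the limit below which signals are called dim here. Means were 34.1 ± 10.9 (SD, n = 2) with ALA, 518 ± 106 without it, 28.7 ± 4.13 in normoxia and 253 ± 59.6 in hypoxia. With dim control signals raised to that percentile, BNA2 was at least 13.0-fold higher in heme depletion and at least 8.60-fold higher in hypoxia.

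The fitted log2 difference of BNA2 was 3.95 in heme depletion (SE 0.296, limma adjusted p = 2.818e-05) and 3.12 in hypoxia (SE 0.296, adjusted p = 6.592e-05). Both rises passed under each of 17 other settings tried, between 3.55 and 4.28 in heme depletion and between 2.59 and 3.37 in hypoxia. The responses to the treatments differed by 0.82, with a 95% interval from -0.13 to 1.78 and an adjusted p of 0.207.

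The BNA2 locus is shared. In the RefSeq gene table of assembly R64, BNA2 overlaps the reading frame YJR079W on the same strand, and none of the other 7 genes overlaps a coding gene. The YJR079W probe set read 56.4 and 84.9 with ALA, 540 and 913 without it, 23.0 and 43.1 in normoxia and 369 and 372 in hypoxia. This probe set rose 10.2-fold in heme depletion (log2 difference 3.34, limma adjusted p = 0.000195) and at least 10.9-fold in hypoxia (3.56, adjusted p = 9.561e-05). It thus separated treated from control cultures as BNA2 did. The positions of the probes are not known here, so the transcripts of BNA2 and YJR079W cannot be told apart. MIR1, the mitochondrial phosphate carrier gene on the other side of BNA2, differed by 0.00 in heme depletion (adjusted p = 0.988) and fell by 0.66 in hypoxia (adjusted p = 0.0263).

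**Figure D2:**
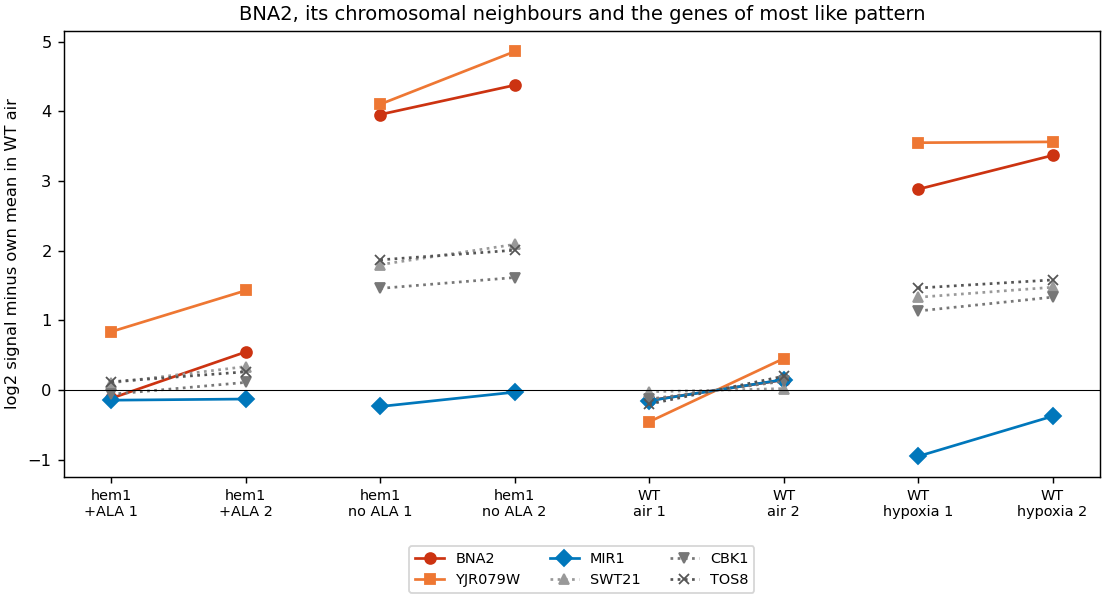
Log2 signal of BNA2, of its neighbours MIR1 and YJR079W and of the 3 genes of most like pattern (SWT21, CBK1, TOS8) on each array, each relative to its own mean in the wild type in normoxia, with lines joining points within a group. BNA2 and YJR079W stand high on all 4 treated arrays, and MIR1 does not.

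BNA7 encodes the formamidase that follows BNA2 and needs neither heme nor oxygen. In the hem1 strain its signal was 255 and 266 given ALA and 237 and 194 lacking it, and in the wild type 394 and 363 in air and 189.9 and 206 in hypoxia. Normoxia stood above every other group without overlap. BNA7 fell 1.91-fold in hypoxia (log2 difference -0.94, SE 0.173, limma adjusted p = 0.00213), under all 17 other settings as well. In heme depletion its difference was -0.28 (SE 0.173, adjusted p = 0.206). Relative to the array medians that difference was -0.68 with an adjusted p of 0.0110, and after quantile normalization it was -0.65 with an adjusted p of 0.0147.

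Of the 8 genes, then, the signal of the gene for the first enzyme rose in hypoxia by a factor of at least 8.60. The signal of the gene for the second enzyme fell. Over the 8 arrays the log2 signals of BNA2 and BNA7 had a Pearson r of -0.8, the lowest among the pairs of these genes. The arrays share 4 groups, so this r is a description of group levels.

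BNA4 encodes the monooxygenase that hydroxylates kynurenine. The hem1 arrays read 142 and 163 in the presence of ALA and 293 and 329 in its absence, and the wild type arrays 317 and 344 in normoxia and 290.1 and 364 in hypoxia. Only the hem1 cultures with ALA stood apart, below the other 6 arrays. BNA4 rose 2.04-fold in heme depletion (log2 difference 1.03, SE 0.184, limma adjusted p = 0.0023), and under all 17 other settings. In hypoxia its difference was -0.02, with a 95% interval from -0.44 to 0.40 and an adjusted p of 0.932. Relative to the array medians it fell by 0.51 in hypoxia (adjusted p = 0.0293).

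BNA5 encodes kynureninase, which removes the alanine side chain. Signals were 134 and 150.3 in ALA-fed hem1, 282 and 342 in starved hem1, 152 and 373 in aerated wild type and 273 and 326 in hypoxic wild type. The normoxia arrays differed 2.46-fold from each other, a wider gap than 96.9% of probe sets had in that group. BNA5 rose 2.19-fold in heme depletion (log2 difference 1.13, SE 0.366, limma adjusted p = 0.0316). The SE is shared by all groups, so the wide gap between the normoxia arrays enters it. The call in heme depletion was kept in 7 of 17 other settings and lost in 10. These were the 3 other scalings (adjusted p of 0.0850 to 0.102), the removal of any 1 hem1 array (0.0600 to 0.128) or any 1 hypoxia array (0.0541 and 0.0542), and the removal of both arrays with high 18S signal (0.107). The hypoxia difference was 0.33 (adjusted p = 0.469), and without the second normoxia array it was 0.98 (adjusted p = 0.0105).

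BNA1 encodes the dioxygenase that opens the ring of hydroxyanthranilate, the last oxygen-dependent step. In hem1 the ALA-fed arrays gave 452 and 483 and the starved ones 869 and 842, and in the wild type normoxia gave 1966 and 1812 and hypoxia 578 and 939. Normoxia stood highest, hem1 with ALA lowest, and the treated groups overlapped between them. The hypoxia arrays differed 1.63-fold, a wider gap than 93.8% of probe sets had there. BNA1 rose 1.83-fold in heme depletion (log2 difference 0.87, SE 0.223, limma adjusted p = 0.0118) and fell 2.56-fold in hypoxia (-1.36, SE 0.223, adjusted p = 0.00115). The fall passed under all 17 other settings. The rise was lost relative to the array medians (0.47, adjusted p = 0.0975), with scaling to the spike controls (0.62, adjusted p = 0.0604) and without the first array with ALA (0.82, adjusted p = 0.0617).

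BNA6 encodes the phosphoribosyltransferase that turns quinolinate into nicotinate mononucleotide. The hem1 strain gave 1077 and 1121 when fed ALA and 1415 and 2051 when not, and the wild type gave 1756 and 1108 in air and 1883 and 1938 under hypoxia. Treated arrays lay above the control arrays in both strains, but the normoxia arrays differed 1.58-fold. The log2 difference was 0.63 in heme depletion (SE 0.247, limma adjusted p = 0.0614) and 0.45 in hypoxia (SE 0.247, adjusted p = 0.150), so neither passed. Heme depletion passed in 5 of 17 other settings, with an adjusted p of 0.0269 to 0.0493. Hypoxia passed without the first normoxia array, with a difference of 0.79 (adjusted p = 0.0281).

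TNA1, the nicotinate permease, brings in the vitamin that anaerobic yeast needs. Fed with ALA, hem1 gave 1759.8 and 1375.5, and without it 1147 and 2012. The wild type gave 2041 and 887 in air and 1377 and 1306 under hypoxia. The groups overlapped in each comparison, and the normoxia arrays differed 2.30-fold, a wider gap than 96.1% of probe sets had there. The log2 difference was -0.03 in heme depletion, with a 95% interval from -0.92 to 0.85 (limma adjusted p = 0.947). In hypoxia it was 0.00, with an interval from -0.89 to 0.88 (adjusted p = 0.994). Changes of up to that size could not be detected with 2 such arrays a group, and no setting tried gave a call for TNA1.

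NPT1, the nicotinate phosphoribosyltransferase, is the step after uptake. The signal in hem1 was 877 and 978 on ALA and 1257 and 1403 off it, and in the wild type 1003 and 943 in air and 995 and 974 in hypoxia. The arrays without ALA stood above the other 6, which lay close together. NPT1 rose 1.43-fold in heme depletion (log2 difference 0.52, SE 0.147, limma adjusted p = 0.0180). This difference was close to the shift of the array medians and was 0.12 relative to them (adjusted p = 0.523). It was also not called with scaling to the spike controls (0.26, adjusted p = 0.325), without the first array with ALA (0.44, adjusted p = 0.0994) or without the second array lacking ALA (0.44, adjusted p = 0.0876). In hypoxia the difference of NPT1 was 0.02 (adjusted p = 0.926), and relative to the array medians it was -0.47 (adjusted p = 0.0258).

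**Figure D3:**
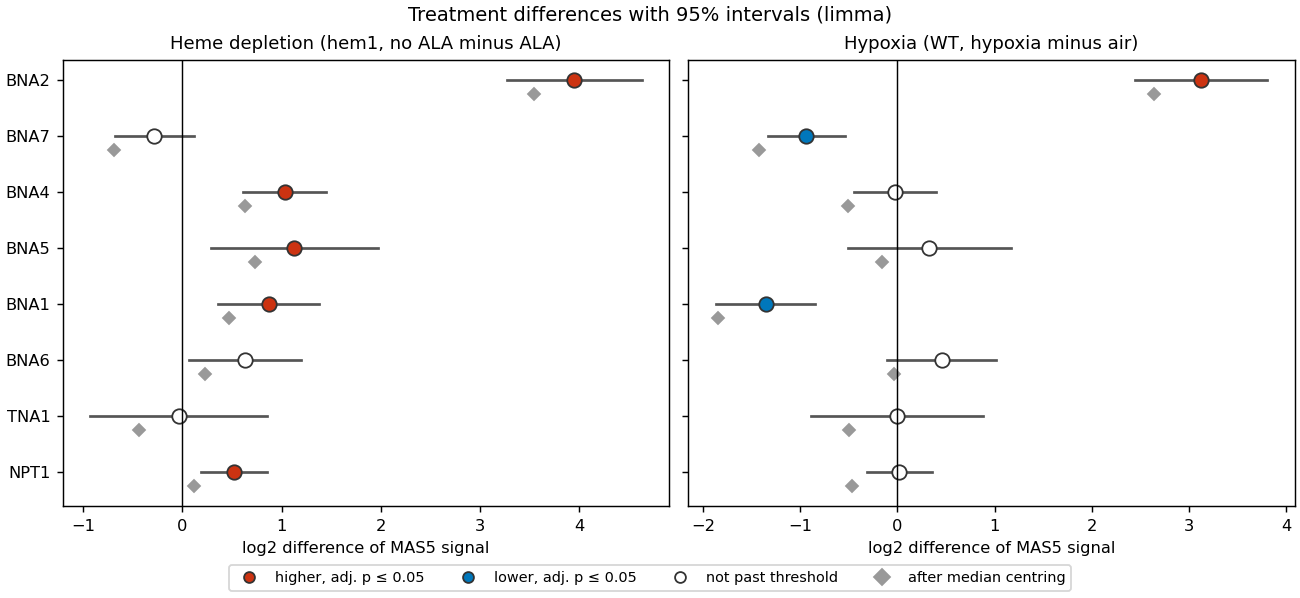
Log2 difference of each of the 8 genes in heme depletion and in hypoxia, with 95% intervals from limma, filled where the adjusted p was below 0.05, and grey diamonds for the value after median centring. BNA2 lies at 3.95 and 3.12, and BNA1 lies above 0 in heme depletion (0.87) and below 0 in hypoxia (-1.36).

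Scaling bears on how the 8 genes divide. The array medians were taken over all probe sets other than controls, dim ones included. They shifted by 0.40 in heme depletion and 0.49 in hypoxia, while the median log2 difference of the tested probe sets was smaller, 0.14 and 0.21. With the deposited scaling, 5 rose and 0 fell in heme depletion, and relative to the array medians 2 rose (BNA2 and BNA4) and 1 fell (BNA7). In hypoxia 1 rose and 2 fell with the deposited scaling, and relative to the medians 1 rose and 4 fell (BNA7, BNA4, BNA1 and NPT1). Over all probe sets called, 60.6% were rises in heme depletion with the deposited scaling and 36.8% relative to the medians. The same shares in hypoxia were 59.6% and 35%. BNA2 rose and BNA7 and BNA1 fell in hypoxia, and BNA2 and BNA4 rose in heme depletion, under each of the 4 scalings. Single arrays also bear on the count in heme depletion, which was 2 (BNA2 and BNA4) without the first array with ALA and 3 without the second array lacking ALA.

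The difference between the responses was tested directly, in a term that also holds strain and culture time. BNA1 and BNA4 passed it, 25% of the 8 genes, both with the higher value in heme depletion. Of all probe sets 17.8% passed, 8.46% in that direction and 9.29% in the other. For BNA1 the responses differed by 2.23 (SE 0.315, limma adjusted p = 0.00408), the 34th largest value in that direction among 5284 genes, and this passed in all 16 other settings. For BNA4 they differed by 1.05 (SE 0.260, adjusted p = 0.0280). The BNA4 call was lost in 7 of the 16 settings, with an adjusted p of 0.0543 to 0.189. BNA5 differed by 0.80 (adjusted p = 0.315), and by 1.45 without the first normoxia array (adjusted p = 0.0208). NPT1 differed by 0.50 (adjusted p = 0.131) and BNA7 by 0.66 (adjusted p = 0.101), and neither passed.

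The groups started from different levels. In hem1 with ALA, compared with the wild type in normoxia, BNA1 was 4.04-fold lower (log2 difference -2.01, SE 0.223, limma adjusted p = 0.000773) and BNA4 2.17-fold lower (-1.12, SE 0.184, adjusted p = 0.00437). These calls held in all 17 other settings, and only 17 of the 5284 genes lay further down than BNA1. The 2 called genes are 25% of the 8, where 21.7% of all probe sets were called, 13.8% as higher and 7.92% as lower. BNA7 and BNA5 were also lower on both hem1 arrays without passing, by -0.54 (adjusted p = 0.0577) and -0.74 (adjusted p = 0.180). BNA7 passed relative to the array medians (-0.77, adjusted p = 0.0160), and BNA5 passed without the first normoxia array (-1.39, adjusted p = 0.00775). For BNA2 the difference was 0.22 (adjusted p = 0.633), with 1 of 2 arrays dim in each group. Strain, ALA and culture time differ together here and cannot be told apart.

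**Figure D4:**
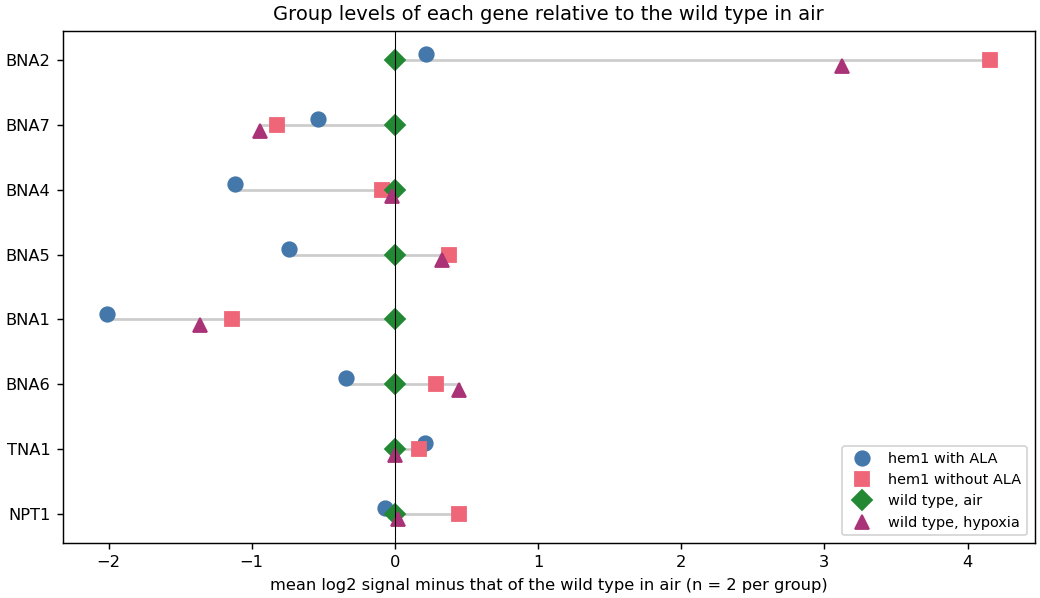
Mean log2 signal of each of the 8 genes in every group, relative to its own mean in the wild type in normoxia. BNA1 stands at -2.01 in hem1 with ALA, -1.14 without it and -1.36 in hypoxia, while BNA2 stands at 0.22, 4.16 and 3.12.

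The treated groups were closer to each other. Between hem1 without ALA and the wild type in hypoxia, BNA4 differed by -0.07 (95% interval -0.49 to 0.35) and BNA1 by 0.22 (-0.29 to 0.73). BNA2 was 2.06-fold higher without ALA (log2 difference 1.04, limma adjusted p = 0.0496), the only call among the 8 genes, or 12.5% where 15% of all probe sets were called, 8.46% as higher and 6.55% as lower. That call was lost in 11 of 17 other settings, with an adjusted p of 0.0502 to 0.277. NPT1 was 0.43 higher (adjusted p = 0.0856), and 0.52 higher after quantile normalization (adjusted p = 0.0489).

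The order of groups differed among the genes. For BNA4 and BNA5 hem1 with ALA lay below the other 3 groups, which overlapped. For NPT1 hem1 without ALA lay above the other 3, which overlapped. For BNA7 normoxia was highest, hem1 with ALA next, and the treated groups lowest and overlapping. For BNA6 and TNA1 no neighbours in the order of group means were separated. The Pearson r between log2 signals over the 8 arrays was highest for BNA4 with BNA5 (0.79), BNA2 with NPT1 (0.77) and BNA4 with BNA1 (0.73).

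The genes whose log2 signals ran most nearly parallel over the 8 arrays are listed by Pearson r, which with 4 groups of 2 arrays follows group levels. For BNA2 they were SWT21 (0.997), CBK1 (0.997) and TOS8 (0.994), and for BNA7 they were PRO3 (0.99), CHO1 (0.987) and SHE2 (0.974). For BNA4 they were STI1 (0.981), ATP2 (0.979) and COG8 (0.969), and for BNA5 they were SEC22 (0.959), HRB1 (0.954) and APS3 (0.928). BNA1 ran with ENT3 (0.988), ADE1 (0.984) and RAD52 (0.982), and BNA6 with YER034W (0.968), AIP5 (0.965) and HPC2 (0.951). TNA1 ran with NUR1 (0.963), PRE4 (0.937) and IRC24 (0.907), and NPT1 with ADR1 (0.991), HAL1 (0.971) and MDJ1 (0.969). None of the 8 genes was among the 3 nearest of another, because only other genes were ranked.

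Beyond the 8 genes, 39 further genes of NAD metabolism, tryptophan supply and the sirtuins were listed, of which 37 were tested. In heme depletion 9 rose and 9 fell, with a median log2 difference of 0.00, and in hypoxia 9 rose and 10 fell, with a median of -0.03. Over all tested probe sets 30.2% rose and 19.7% fell in heme depletion, with a median of 0.14. The same values in hypoxia were 33.3%, 22.5% and 0.21. Without the arrays of high 18S signal 4 rose and 6 fell in heme depletion, and 4 rose and 7 fell in hypoxia. Relative to the array medians the numbers were 4 and 15 in heme depletion, and 4 and 16 in hypoxia. The counts under these other settings are not set against the share of all probe sets there. Relative to the medians, rises were also a smaller share of all probe sets called.

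The final steps from the mononucleotide to NAD did not move as one. NMA2, an adenylyltransferase, read 418 and 415 with ALA, 711 and 728 without it, 384 and 383 in normoxia, and 597 and 563 in hypoxia. NMA2 rose by 0.79 in heme depletion (limma adjusted p = 0.00255) and by 0.60 in hypoxia (adjusted p = 0.00788), and relative to the array medians by 0.39 (adjusted p = 0.0517) and 0.11 (adjusted p = 0.551), which did not pass. QNS1, the NAD synthetase that adds the amide group, read 112 and 102 with ALA and 53.4 and 58.5 without it, and fell by 0.94 (adjusted p = 0.00525). In hypoxia it differed by -0.45 (adjusted p = 0.0870), and relative to the medians it fell by 0.94 there (adjusted p = 0.00302). NMA1, the other adenylyltransferase, differed by 0.61 (adjusted p = 0.193) and 0.49 (adjusted p = 0.276). POF1 rose by 0.70 in heme depletion (adjusted p = 0.0251), which was lost in 6 of 17 other settings and was 0.30 relative to the medians (adjusted p = 0.223).

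Of 3 NAD kinases, which make NADP or its reduced form, 3 rose in each treatment with the deposited scaling, where 30.2% and 33.3% of all probe sets rose. Relative to the array medians 2 of the 3 rose in each treatment, and without both arrays of high 18S signal 1 did. Neither count is set against the share of all probe sets under that setting. UTR1 read 67.7 and 125 with ALA, 391 and 313 without it, 81.8 and 135 in normoxia and 325 and 348 in hypoxia. UTR1 rose 3.80-fold in heme depletion (limma adjusted p = 0.00193) and 3.20-fold in hypoxia (adjusted p = 0.00303). YEF1 was dim on 1 array of each control group and rose at least 4.16-fold (adjusted p = 0.00631) and at least 2.97-fold (adjusted p = 0.00853). Without both arrays of high 18S signal neither YEF1 rise passed (adjusted p of 0.0767 and 0.0858). POS5, the mitochondrial kinase, rose by 0.53 in both treatments (adjusted p = 0.0377 and 0.0362), which was 0.13 and 0.04 relative to the array medians and then not called.

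Of 4 genes tested for salvage of nicotinamide and its riboside, 2 fell in each treatment and 2 did not pass. Of all probe sets 19.7% fell in heme depletion and 22.5% in hypoxia. URH1, a nucleoside hydrolase, read 221 and 192 with ALA, 84.0 and 94.3 without it, 229.7 and 171 in normoxia and 65.7 and 78.0 in hypoxia. URH1 fell by 1.21 in heme depletion (limma adjusted p = 0.00235) and by 1.47 in hypoxia (adjusted p = 0.00068). NRK1, the riboside kinase, fell by 0.85 (adjusted p = 0.0246) and by 0.92 (adjusted p = 0.0155), and each call was lost in 4 of 17 other settings. PNC1, the nicotinamidase that feeds nicotinate to NPT1, differed by 0.51 (adjusted p = 0.118) and -0.07 (adjusted p = 0.824). PNP1 did not pass, and NRT1, the riboside transporter, was too dim to test. BNA3, which draws kynurenine into a side branch, differed by 0.43 in heme depletion (adjusted p = 0.223) and rose by 0.74 in hypoxia (adjusted p = 0.0477), a call lost in 9 of 17 other settings. Relative to the medians that rise was 0.25 (adjusted p = 0.430). YEA6, a mitochondrial NAD carrier, rose by 1.05 in heme depletion (adjusted p = 0.0283), which was lost in 7 of 17 other settings and was 0.65 relative to the medians (adjusted p = 0.141). YIA6 did not pass. The mononucleotide nucleotidases ISN1 and SDT1 did not pass in either treatment.

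Of 7 genes for sirtuins and for the repressor of the BNA genes, 6 were tested. HST1, the catalytic part of that repressor, read 974 and 982 with ALA, 1174 and 979 without it, 747 and 773 in normoxia and 1007.5 and 1180.0 in hypoxia. HST1 differed by 0.13 in heme depletion (limma adjusted p = 0.518) and rose by 0.52 in hypoxia (adjusted p = 0.0226), which was lost in 6 of 17 other settings and was 0.03 relative to the array medians (adjusted p = 0.871). SUM1, its DNA-binding part, differed by -0.51 (adjusted p = 0.0501) and 0.09 (adjusted p = 0.716), and relative to the array medians it fell by 0.91 in heme depletion (adjusted p = 0.00461). RFM1, which links them, was near the dim limit and differed by -0.40 (adjusted p = 0.343) and -0.09 (adjusted p = 0.846). HST2 rose by 1.04 (adjusted p = 0.00115) and 0.99 (adjusted p = 0.0011). SIR2, the silencing deacetylase, differed by 0.38 in heme depletion (adjusted p = 0.0953) and rose by 1.25 in hypoxia (adjusted p = 0.000465). Of 6 middle sporulation genes, another class that Sum1 is known to repress, 5 were too dim to test and SPS1 did not pass in either treatment.

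Of 15 genes around tryptophan supply, 2 rose and 6 fell in heme depletion, and 1 rose and 8 fell in hypoxia. Over all probe sets 30.2% rose and 19.7% fell in heme depletion, and 33.3% and 22.5% in hypoxia. Relative to the array medians 1 of the 15 rose and 10 fell in heme depletion, and 0 rose and 10 fell in hypoxia. These counts are not set against the share of all probe sets under that scaling. With the deposited scaling TRP4 fell by 0.51 (limma adjusted p = 0.0212) and 0.58 (adjusted p = 0.0104). TRP5 was called in hypoxia alone, where it fell by 0.78 (adjusted p = 0.00207). TRP1, TRP2 and TRP3 were not called in either treatment. ARO2, the chorismate synthase, fell by 0.94 (limma adjusted p = 0.00103) and 1.25 (adjusted p = 0.000172). ARO7, the chorismate mutase that leads away from tryptophan, fell by 1.25 (adjusted p = 0.00111) and 1.03 (adjusted p = 0.00229). TAT2, the tryptophan permease, rose by 0.49 in heme depletion (adjusted p = 0.0346) and was not called relative to the medians (0.09, adjusted p = 0.662). ARO1, the 1 rise in hypoxia, rose by 0.56 there (adjusted p = 0.0159) and was not called relative to the medians (0.08, adjusted p = 0.697). In heme depletion ARO1 differed by 0.01 (adjusted p = 0.976). ARO10, a decarboxylase of aromatic amino acid breakdown rather than supply, read 32.3 and 22.3 with ALA, 242 and 224 without it, 105 and 132 in normoxia and 111 and 122 in hypoxia. ARO10 rose at least 6.41-fold in heme depletion (adjusted p = 3.243e-05) and differed by -0.02 in hypoxia (adjusted p = 0.946). ARO9, an aminotransferase of the same breakdown, read 73.7 and 64.2 with ALA, 58.6 and 66.6 without it, 254 and 293 in normoxia and 83.1 and 89.0 in hypoxia. ARO9 differed by -0.14 in heme depletion (adjusted p = 0.584) and fell by 1.67 in hypoxia (adjusted p = 0.000221). In heme depletion ARO9 was called lower relative to the medians (-0.54, adjusted p = 0.0406) and after quantile normalization (-0.55, adjusted p = 0.0431).

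Markers of cell type moved with the treatments. All 4 MATalpha genes listed fell in both treatments, where 19.7% of all probe sets fell in heme depletion and 22.5% in hypoxia. Their summed signal was 21274 to 22930 with ALA, 9955 to 11325 without it, 24807 to 25970 in normoxia and 6770 to 7165 in hypoxia. In heme depletion SAG1, 1 of these 4, had an adjusted p of 0.0487, and 3 of the 4 were called after quantile normalization. The summed signal of 5 MATa genes was 206 to 250, 630 to 715, 108 to 126 and 231 to 301 in the same groups. The sum over the 6 sporulation genes was 88 to 108, 98 to 102, 36 to 38 and 68 to 73. Of these genes, 1 exceeded the dim limit on both arrays with ALA, and 0 did in each other group. The sums are therefore mostly of dim signals. STE2 and AGA2 of the MATa list were too dim to test. Of the 3 tested, 2 rose in heme depletion and 3 in hypoxia, where 30.2% and 33.3% of all probe sets rose. BAR1 rose by 1.18 (limma adjusted p = 0.0044) and 1.23 (adjusted p = 0.00293). MFA2 rose by 0.89 in heme depletion (adjusted p = 0.0165). In hypoxia, with 1 dim normoxia array, MFA2 rose at least 1.96-fold (adjusted p = 0.00899). The part of these shifts in the levels of the 8 genes was not tested.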

How the data were processed

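The authors deposited 1 table of linear signal intensities. MAS5 is the tool named for it, per the submitters' processing notes, with no version given in the sources used here. Probe-level files and detection calls were not used. Of 9335 probe sets, 60 were controls. Of the other 9275, 6504 had 1 gene in the platform annotation, 328 had several and 2443 had none. All 6504 matched the RefSeq gene table of assembly R64 by gene ID. That table served for names and neighbours, and no coordinates are printed since the array names no build.

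Tests were limited to probe sets whose signal passed the 30th percentile within an array for 2 or more of the 8 arrays, which kept 7081 probe sets, 5284 genes and each of the 8 pathway genes. BNA2 passed on 1 of 2 arrays in each control group and on all treated arrays. Where a gene had more than 1 probe set, the brightest stands for it. The fit to log2 signals used limma 3.58.1 (R 4.3.3) and all 8 arrays, with a mean for each group, an intensity trend, and 4 residual and 4.36 prior degrees of freedom. Tests were two-sided with Benjamini-Hochberg adjustment over all 7081 probe sets. The script was tested on simulated data.

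A fold against a group with a dim array is given as "at least", over the mean of the higher of signal and 30th percentile on each array of that group. The 8 genes and the lists were chosen with earlier results of these data known. From each list, up to 2 genes per treatment and direction with the smallest adjusted p were named, and 9 genes (HST1, SUM1, RFM1, PNC1, BNA3, NMA1, NMA2, QNS1, NRK1) whatever their values. Genes of like pattern are the 3 with the highest Pearson r. POS5, POF1, PNP1, ISN1, SDT1, YIA6, SPS1, SAG1, MFA1, TRP1, TRP2, TRP3, TRP4, TRP5 and the dim genes are named to complete their lists. They were named after their values were seen. The arrays, 2 a group, limit the precision. Alternatives were median centring, quantile normalization, scaling to spike controls, no filter, a filter at the 50th percentile, a floor at the 30th, no intensity trend, a fit on the groups compared, each array left out, and both arrays of high 18S signal left out, the last chosen after seeing the data.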

Additional observations from a re-analysis of the deposited data

Results flagged for a closer look

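The responses to heme depletion and to hypoxia differed by a test of the difference itself, the log2 difference in the hem1 strain minus that in the wild type, for these named genes. Each adjusted p is from the limma fit over all probe sets. BNA1 rose in heme depletion and fell in hypoxia, and its responses differed by 2.23 (SE 0.315, adjusted p = 0.00408). BNA4 differed by 1.05 (SE 0.260, adjusted p = 0.0280), with a rise in heme depletion and no call in hypoxia. The same value is the difference between the treated cultures minus that between the control cultures. Between the control cultures BNA1 differed by -2.01 and BNA4 by -1.12, lower in hem1 with ALA. Between the treated cultures they differed by 0.22 and -0.07 and were not called. The lower level with ALA is thus part of this result and not a separate one.

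Among the other listed genes, ARO10, of aromatic amino acid breakdown, differed by 3.14 (adjusted p = 0.00125), or by 2.70 with signals floored at the 30th percentile, since both of its arrays with ALA were dim. ARO9, of the same breakdown, differed by 1.53 (adjusted p = 0.00981). Both started lower in hem1 with ALA than in normoxia. ARO9 differed there by -1.99 (adjusted p = 0.00054), and ARO10 was at least 3.25-fold lower (adjusted p = 0.000822). SIR2 differed by -0.87 (adjusted p = 0.0423), a call lost in 12 of 16 other settings. The alpha-factor genes fell more in hypoxia, by a difference of 2.54 for MF(ALPHA)2 (adjusted p = 0.00479) and 0.59 for MF(ALPHA)1 (adjusted p = 0.0445). Strain, treatment and culture time differ together in these values and cannot be told apart.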

How the results depend on the processing

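Of 672 repeats of the differences of the 8 genes under other settings, 621 kept their side of the threshold, 48 of them uncalled values that changed sign. A further 35 lost a call, 15 gained one and 1 was called in the other direction. That one was NPT1 in hypoxia, at -0.47 relative to the array medians (adjusted p = 0.0258). RFM1 in hypoxia turned to 0.54 (adjusted p = 0.0129) with a floor at the 30th percentile, where dim signals share 1 value.

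In heme depletion 3 of the 8 genes were called with median centring and 2 with spike scaling, against 5. In hypoxia 5 were called with median centring, against 3. With the deposited scaling 49.9% of all probe sets were called in heme depletion and 55.8% in hypoxia. These counts of the 8 genes are not set against the share of all probe sets under the same other scaling. For the difference of the responses 1 was called with spike scaling and 1 without the arrays of high 18S signal, against 2. Between the treated cultures 0 were called, against 1, with median centring, spike scaling, no filter, the filter at the 50th percentile, no intensity trend, and without the arrays of high 18S signal, and the single call had an adjusted p of 0.0496. Without the arrays of high 18S signal, 467 probe sets were called for the difference of the responses (1257 with all arrays) and 265 between the treated cultures (1063 with all arrays).

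With 1 array left out at a time, the lone array of its group is assumed to vary like the other groups. The number of the 8 genes called was then 2 to 6 in heme depletion, 3 to 4 in hypoxia, 1 to 3 for the difference, 2 to 3 between the control cultures and 0 to 1 between the treated ones. The difference had 1 call without either array with ALA, the second array lacking ALA, the second normoxia or the first hypoxia array, and the treated cultures had 0 without any 1 of their 4 arrays. Probe sets called ranged over 2658 to 3662, 3080 to 3990, 533 to 1089, 695 to 1514 and 320 to 1121 in the same order. The cause of each change was not tested. Use of every probe set of a gene was not run, because each of the 8 genes has 1. No paired analysis was possible because the replicate numbers only follow the order of the samples. Dim control signals limit BNA2 to a lower bound, and spreads of over 2-fold in normoxia limit BNA5 and TNA1.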
